A study of Mus musculus with 87 samples.

Results

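Livers collected 1 week after partial hepatectomy (PH), the surgical removal of most of the liver, were compared with resting livers of mice that had not been operated on, to find the transcripts whose level was not yet back at the resting level. The comparison takes 3 livers labelled post-PH 1 week (X1W) and 9 livers labelled control 0 h (C0), chosen by their labels alone, and these 12 livers are 12 of 87 labelled samples, of which 80 have values in the table analysed here. Of the 37991 genes in the table, 15396 were tested and 1279 of them differed between X1W and C0 in 3 related comparisons described below.

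The series followed mouse liver from hours to 4 weeks after PH by sequencing the polyadenylated RNA of 1 liver a library, with sham surgery at some of the early times. The mice were C57BL/6 males, given in the labels as 12-14 weeks of age, and were kept on light/dark cycles with food in the dark period only. Surgery was done at Zeitgeber Time (ZT) 2, early in the light and fasting period, and the X1W and C0 livers were both collected at ZT2. Livers labelled 4 weeks post-PH (X4W, n = 2) and unoperated livers labelled control 4 weeks (C4W, n = 2) served as a second pair of groups that shares no liver with X1W or C0. No sham-operated and no unoperated liver was collected at 1 week, so that the resection, the surgery and the passage of 1 week cannot be told apart. Each group stands for 1 strain, 1 sex and whole liver tissue, in which fewer cells of a type and less RNA per cell cannot be told apart.

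In a resting adult liver, hepatocytes are quiescent. After PH, the remaining hepatocytes re-enter the cell-division cycle and restore the mass of the organ while it goes on making plasma proteins, bile, glucose and fat, and the other liver cells divide after them. Inflammatory signals released by the surgery also turn on the acute-phase response, in which hepatocytes secrete a set of defence proteins into the plasma.

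The estimated depth was 20.5 to 28.2 M (megareads) in the X1W libraries and 21.4 to 34.4 M in the C0 libraries, and the Pearson correlation between livers of a group was 0.984 to 0.989 in X1W and 0.966 to 0.993 in C0 (across genes, which are not independent replicates). The 8 hepatocyte markers listed were all above the detection limit, with a summed level of 47930 to 54930 RPKM in X1W and 46950 to 56510 in C0, as the label liver calls for, although 2 of them, *Apoa1* and *Cyp2e1*, are among the lower genes below, and no pair of livers within a group held the same values. C0 replicate 8 stood apart from the other resting livers by high acute-phase and macrophage transcripts, C0 replicate 2 by high hemoglobin transcripts, and C0 replicates 4 to 6 by *Cdkn1a*. Without C0 replicate 8, 1328 genes were called in the 3 comparisons used below, and without C0 replicate 2, 1378. The X1W libraries held relatively more RNA of long transcripts and less of short transcripts than the C0 libraries, and the called genes of a list that were not called once this trend was removed are named or counted with the list.

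A gene was called where limma gave a Benjamini-Hochberg adjusted p below 0.05 and a difference above 0.5 on the scale of log2(RPKM + 0.25). RPKM, a read count scaled to transcript length in kilobases and to the mapped reads of the library, is given below as log2, where −14.29 is the lowest value listed. Differences of low transcripts are understated on this scale. In X1W against C0, 2604 of 15396 genes were called (16.9%), of which 1914 were higher (12.4%) and 690 lower (4.48%). The direction of the whole set depended on the scaling: 73.5% of the called genes were higher with the values as deposited, 36% when the libraries were scaled to the same median, and 51.1% when they were centred on the median gene-wise deviation. Scaling to the same median moved the median difference of all tested genes from 0.12 to −0.03.

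For this reason the genes described below as higher, risen, lower or fallen are those called in the same direction against all 9 C0 livers, against C0 replicates 1 to 6 only, and with libraries scaled to the same median. There were 1279 such genes (8.31% of those tested), 785 higher (5.1%) and 494 lower (3.21%). In 965 of them the 3 X1W livers lay outside the range of the 9 C0 livers. Over all tested genes, the X1W livers lay above that range in 13.7% and below it in 6.07%. Genes chosen for a large difference tend to lie outside it. The shares of 5.1% higher and 3.21% lower over all tested genes are the ones to set each list count below beside. Protein-coding genes made up 741 of the higher and 340 of the lower genes, and 118 of the lower genes were annotated pseudogenes. With the C0 livers taken as triplicates, X1W differed by 2015 calls from C0 replicates 1 to 3, by 2406 from replicates 4 to 6 and by 4689 from replicates 7 to 9. Without X1W replicate 3, 808 genes were called in the 3 comparisons.

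**Figure D1:**
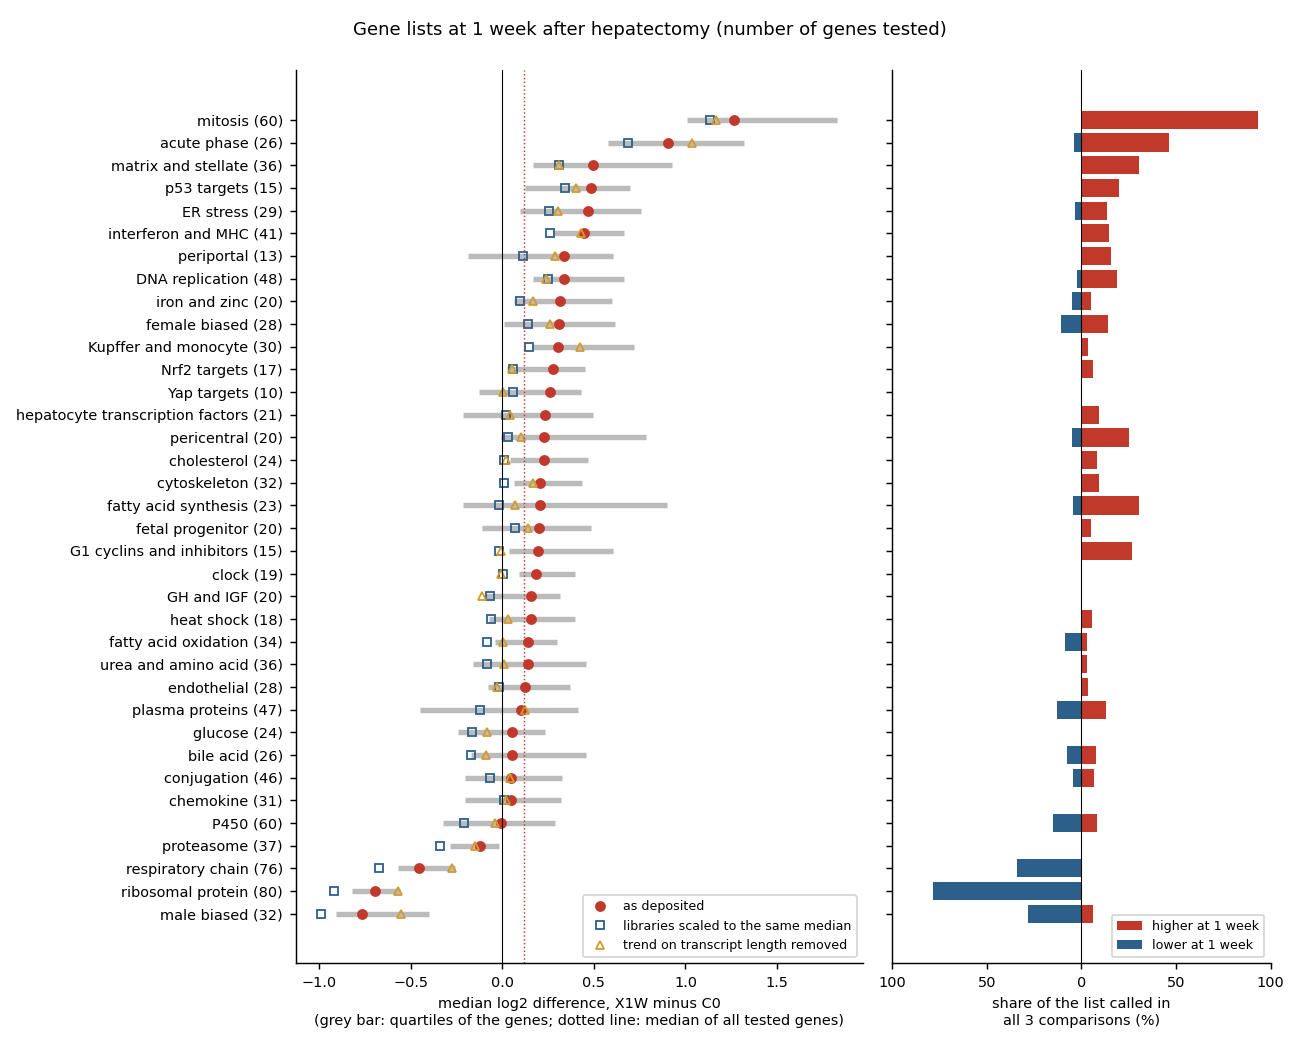
Gene lists at 1 week after PH. Left, the median log2 difference between X1W and C0 over the genes of each list (red dots, with the quartiles of the genes as grey bars), with the medians after scaling libraries to the same median or removing the trend on transcript length (open symbols). Right, the percentage of each list called in all 3 comparisons, higher (red) or lower (blue). Mitosis stands highest with a median of 1.26, and the ribosomal protein, respiratory chain and male-biased lists stand below 0 in all of these.

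Of the 36 gene lists, that of mitosis had the largest share of members higher in X1W. Of 60 tested genes of the spindle, kinetochore, condensin and mitotic kinase machinery, 56 were higher in X1W and none lower, against 5.1% of all tested genes. The median difference of the list was 1.26, against 0.12 for all tested genes, and the list kept 53 to 56 higher genes with either scaling, with the length trend removed, without any single liver, or against C0 replicates 1 to 3 or 4 to 6. With a pseudocount of 1 in place of 0.25, 34 were called.

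*Cdc20*, the activator of the anaphase-promoting complex that triggers the separation of sister chromatids (ENSMUSG00000006398, mm9 chr4:118105506-118109957), stood at log2 RPKM 2.33, 1.46 and 2.81 in the X1W livers. In the C0 livers it ranged from −4.21 to 0.39 with a median of −2.39. The groups did not overlap, and the highest resting liver was C0 replicate 2. The difference was 3.24 ± 0.34 (SE, limma adjusted p = 2.1e-10), or 9.46-fold on this scale.

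*Ccnb2*, which encodes cyclin B2, one of the activators of the mitotic kinase Cdk1, was at 1.17, 0.06 and 1.67 in X1W, and at −4.52 to −0.55 (median −2.56) in C0. *Ccna2*, the cyclin of S phase and early mitosis, was at 0.96, 0.12 and 1.38 in X1W and at −4.23 to −0.72 (median −2.58) in C0. For both cyclins, every X1W liver lay above every C0 liver, and X1W replicate 2 was the lowest of its group. Their differences were 2.32 ± 0.31 and 2.25 ± 0.27 (limma adjusted p = 3.1e-08 and 2.9e-09).

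*Mki67*, the proliferation antigen that coats mitotic chromosomes, was at 0.82, −0.28 and 1.18 in X1W. It was at −4.23 to −0.86 in C0, with a median of −3.69. *Cdk1*, the mitotic kinase itself, was at 1.19, 0.32 and 1.20 in X1W against −2.51 to −0.09 in C0. In these genes too the groups did not overlap, and the top of the resting range was set by C0 replicate 2.

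*Top2a*, the topoisomerase that untangles replicated DNA, was higher by 1.93 ± 0.26, *Ccnb1*, cyclin B1, by 1.93 ± 0.23, and *Ckap2*, a spindle protein, by 2.27 ± 0.23. The smallest rises among the 56 were those of *Sgol1*, a protector of centromere cohesion, and *Espl1*, the protease separase, both at 0.67. The 4 members not called in all 3 comparisons were *Cenpk* (0.57), *Ska1* (0.45), *Cks2* (−0.06) and *Pttg1* (−0.51, called lower with all C0 livers and with the libraries scaled, but not against C0 replicates 1 to 6), and they are named here after their values were seen.

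The promoters of these genes are shown because the transcripts moved together. Mitotic promoters are known for the cell-cycle genes homology region (CHR), bound by the MuvB complexes that repress them in quiescent cells, and for CCAAT boxes, bound by NF-Y. RefSeq windows of 250 bases before to 50 bases after the start (GRCm38.p6) were found by symbol for 49 of the 60 genes. Searched on both strands, TTTGAA or TTCGAA, the core letters of the CHR, was present in 37 of the 49 (75.5%), against 21.7% of the 27025 symbols with a window and 17% of the tested genes with one. CCAAT was present in 36 of the 49 (73.5%), against 41.1% and 43.2%. A CCAAT match and a CHR match shared a base in 1 of the 49. Such matches are letters in a window and were not tested as sites. The stretches from base −150 to base −1 of 4 of these genes follow, on the strand of the gene, with CCAAT and CHR letters, or their reverse complements, in capitals.
Cdc20, chr4:118437344-118437493, minus strand: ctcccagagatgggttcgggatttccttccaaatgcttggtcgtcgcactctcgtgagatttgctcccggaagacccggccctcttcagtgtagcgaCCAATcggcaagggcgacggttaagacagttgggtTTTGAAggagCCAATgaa
Cdk1, chr10:69352913-69353062, minus strand: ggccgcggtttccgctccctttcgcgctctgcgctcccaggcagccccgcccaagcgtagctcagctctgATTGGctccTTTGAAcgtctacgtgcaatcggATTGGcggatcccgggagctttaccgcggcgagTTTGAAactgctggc
Mki67, chr7:135716380-135716529, minus strand: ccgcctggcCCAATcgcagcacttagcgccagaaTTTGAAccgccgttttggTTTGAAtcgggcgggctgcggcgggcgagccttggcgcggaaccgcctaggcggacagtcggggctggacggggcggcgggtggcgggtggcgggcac
Top2a, chr11:99024190-99024339, minus strand: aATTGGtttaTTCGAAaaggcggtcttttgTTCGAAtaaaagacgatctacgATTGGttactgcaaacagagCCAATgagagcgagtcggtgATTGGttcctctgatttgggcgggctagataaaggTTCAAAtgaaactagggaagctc

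**Figure D2:**
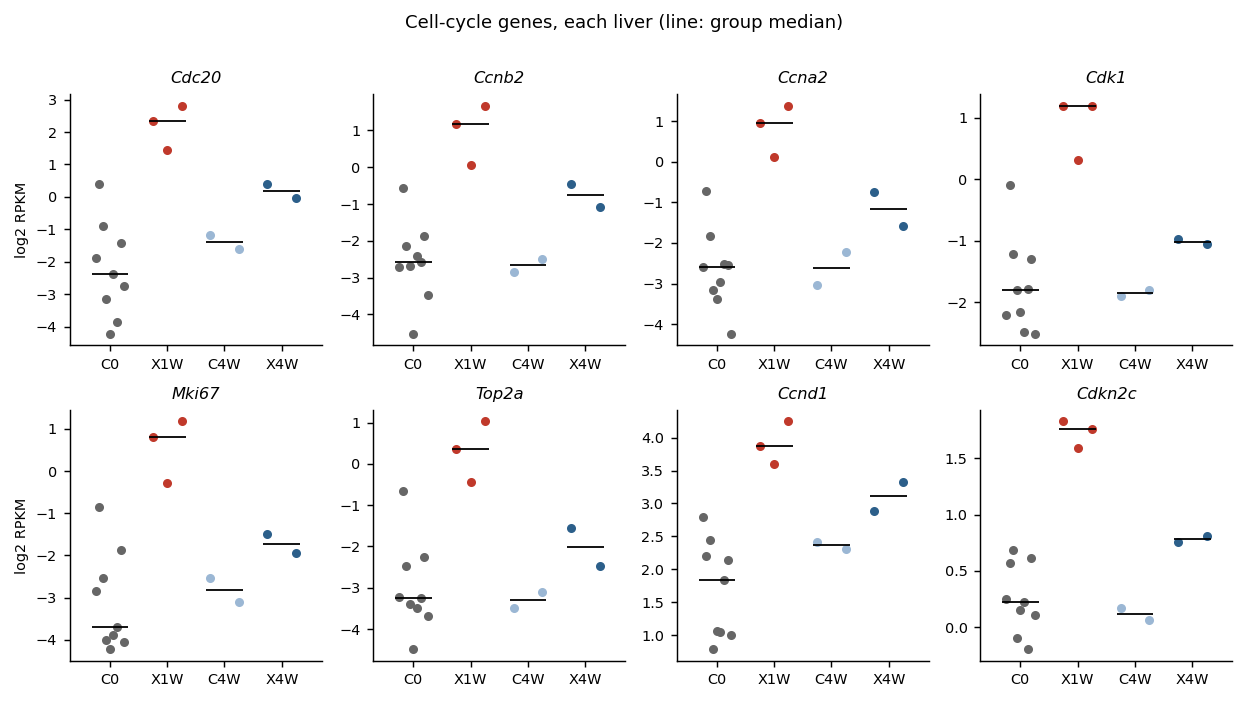
Levels of 8 cell-cycle genes in single livers, as log2 RPKM, in C0 (n = 9), X1W (n = 3), C4W (n = 2) and X4W (n = 2), with the group median as a line. The 3 X1W livers lie above all 9 C0 livers in each panel, for *Cdc20* at 1.46 to 2.81 against −4.21 to 0.39.

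DNA replication precedes mitosis in the cell-division cycle. Of 48 tested genes of the origin, helicase and polymerase machinery, 9 were higher and 1 lower, against 5.1% and 3.21% of all tested genes. The median difference was 0.34. Only 4 were higher without X1W replicate 1 or without X1W replicate 3, and 2 with a pseudocount of 1, and the lower call was lost without X1W replicate 1. *Mcm6*, a subunit of the replicative helicase, was at 1.87, 0.29 and 1.73 in X1W and at −1.46 to 0.75 in C0 (difference 1.46 ± 0.33, adjusted p = 4.9e-04), so that X1W replicate 2 lay within the resting range. *E2f2*, an E2F transcription factor, was at −0.60, −0.47 and −0.29 in X1W and at −4.60 to −2.26 in C0 (1.47 ± 0.20, adjusted p = 9.0e-08), with no overlap.

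*Uhrf1*, which couples DNA methylation to replication, was higher by 0.98, and *Mcm5*, another helicase subunit, differed by 1.03 without being called in all 3 comparisons. *Ccne2*, a cyclin of the start of S phase, differed by 0.53 and was not called. *Mcm10*, a replication initiation factor, was lower, at 1.01, 1.71 and 1.47 in X1W against 1.73 to 3.18 in C0. Among the replication genes, TTTGAA or TTCGAA was found in 11 of 40 promoter windows (27.5%).

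In the list of G1 cyclins and cyclin-dependent kinase inhibitors, 4 of 15 genes were higher and none lower, against 5.1% and 3.21% of all tested genes. *Ccnd1*, which encodes cyclin D1, the cyclin that carries hepatocytes through G1, was at 3.87, 3.60 and 4.24 in X1W and at 0.78 to 2.79 (median 1.83) in C0. It was higher by 2.11 ± 0.34 (limma adjusted p = 2.8e-06), with no overlap between the groups. *Cdkn2c*, an inhibitor of the cyclin D kinases, was higher by 1.30, *Rbl1*, the pocket protein p107, by 1.26, and *Cdk6*, a cyclin D kinase, by 0.84.

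*Cdkn1a*, which encodes the inhibitor p21, was at 2.81, 2.42 and 2.36 in X1W. In C0 it was at 5.36, 5.41 and 5.50 in replicates 4 to 6 and at 0.15 to 2.26 in the other 6 livers. The pooled difference was −0.07 and was not called, and against C0 replicates 1 to 3 alone it was 1.28. Among p53 target genes, 3 of 15 were higher, namely *Eda2r*, a receptor of the TNF family (0.98), *Aen*, a nuclease (0.71), and *Zmat3*, an RNA-binding protein (0.68), and of these only *Eda2r* was also called with the length trend removed. There was 1 higher p53 target without C0 replicate 9 and there were 5 without C0 replicate 2.

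Several acute-phase genes were far above the resting level. Of 26 tested genes, 12 were higher and 1 lower, against 5.1% and 3.21% of all tested genes. The list kept 9 to 15 higher genes under the alternatives run, the fewest without X1W replicate 3. *Saa2*, a serum amyloid A of the acute-phase response (ENSMUSG00000057465, mm9 chr7:54007203-54009684), was at 9.35, 9.95 and 10.93 in X1W. It was at 3.10 to 7.24 (median 4.47) in C0, where replicate 8 was highest, and no X1W liver lay within that range. The difference was 5.37 ± 0.64 (limma adjusted p = 3.2e-09), or 41.4-fold.

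*Saa1*, its neighbour and near-identical copy, was at 10.46, 10.69 and 11.35 in X1W and at 4.04 to 9.22 (median 5.95) in C0. It differed by 4.66 ± 0.60 (adjusted p = 1.6e-08). How reads were divided between these copies is uncertain, since reads that mapped to several places were split. Together *Saa1* and *Saa2* held 0.384 to 0.905% of the summed RPKM in X1W and 0.00363 to 0.114% in C0.

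*Lcn2*, lipocalin 2, which binds bacterial iron carriers, was at 5.74, 5.30 and 6.86 in X1W. In C0 it was at −0.77 to 1.19 in 8 livers and at 5.64 in replicate 8, which lay within the X1W range. The difference was 4.60 ± 0.59 (adjusted p = 1.4e-08). *Orm2*, an orosomucoid, was at 8.69, 7.90 and 9.93 in X1W and at 4.51 to 5.38 in 8 C0 livers, with 7.86 in C0 replicate 8 (3.53 ± 0.46, adjusted p = 1.9e-08).

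The other risen members were *Orm3* (3.63), *Socs3*, a feedback inhibitor of cytokine signalling (1.58), *Hpx*, the heme carrier hemopexin (1.32), *Itih4* (1.31), *Steap4* (1.28), *Orm1* (1.15), *Itih3* (1.07) and *Serpina3n* (0.93). Orosomucoid genes are close copies of each other, so that their separate values are uncertain. *Hamp*, which encodes the iron hormone hepcidin, was the 1 acute-phase gene that fell. It was at 7.58, 7.60 and 6.32 in X1W and at 7.47 to 10.45 in C0 (difference −2.23 ± 0.43, adjusted p = 4.7e-05), where the lowest resting liver was C0 replicate 2. *Tfrc*, the transferrin receptor that takes up iron, was higher by 1.46. In the iron and zinc list of 20, *Hamp* and *Tfrc* were the 2 genes called in all 3 comparisons.

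The promoters of the acute-phase genes are shown for the letters of the C/EBP consensus, a factor family known for driving acute-phase genes in hepatocytes. TTGCNNAA, on either strand, was present in 13 of the 23 windows found for the list (56.5%), against 12.2% of the 27025 symbols with a window and none of the 49 mitosis windows. The stretches from base −220 to base −71 of 4 risen genes follow, with the match in capitals.
Saa1, chr7:46743051-46743200, minus strand: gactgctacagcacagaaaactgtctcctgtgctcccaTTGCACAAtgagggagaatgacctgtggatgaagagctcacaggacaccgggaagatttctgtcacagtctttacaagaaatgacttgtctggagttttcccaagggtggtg
Saa2, chr7:46751613-46751762, plus strand: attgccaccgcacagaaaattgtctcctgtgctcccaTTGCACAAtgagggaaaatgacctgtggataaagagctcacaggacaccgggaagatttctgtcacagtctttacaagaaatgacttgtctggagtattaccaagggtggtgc
Lcn2, chr2:32387810-32387959, minus strand: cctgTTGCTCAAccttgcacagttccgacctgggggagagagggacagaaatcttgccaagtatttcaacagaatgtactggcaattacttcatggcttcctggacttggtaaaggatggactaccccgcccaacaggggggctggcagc
Orm2, chr4:63362229-63362378, plus strand: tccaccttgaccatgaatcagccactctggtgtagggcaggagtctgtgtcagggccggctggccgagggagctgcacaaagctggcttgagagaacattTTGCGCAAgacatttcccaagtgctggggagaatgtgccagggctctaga

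Among other plasma proteins, 6 of 47 genes were higher and 6 lower. This split depended on the scaling: with all 3 comparisons repeated on libraries scaled to the same median it was 3 higher and 15 lower, on centred libraries 5 and 12, and with the length trend removed 6 and 3. Complement genes were among the higher ones: *C3*, the central complement component, at 11.05, 10.72 and 11.21 in X1W against 9.36 to 10.19 in C0 (1.08 ± 0.15), *Hc*, which encodes complement C5 (1.06 ± 0.15), and *C9*, a pore-forming component (0.78). The 3 X1W livers lay above the 9 C0 livers for *C3*, *Hc* and *C9*. Apolipoprotein genes of high-density lipoprotein were among the lower ones. *Apoa1*, the main one, was at 11.79, 11.80 and 11.60 in X1W and at 12.45 to 13.18 in C0 (−1.0 ± 0.12, adjusted p = 6.8e-09), and *Apoa2* differed by −0.94. *Apoh*, *Apoc3* and *Apoa5* fell by 0.62, 0.58 and 0.56, and *Apob*, of very low-density lipoprotein, was higher by 0.94. With the length trend removed 9 of the 12 genes were also called, and *Apob*, *Apoc3* and *F5* were not. *Alb*, albumin, was not called (0.16, adjusted p = 0.48).

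Of 32 tested genes that male mouse livers express more than female livers, 9 were lower in X1W and 2 higher, against 3.21% and 5.1% of all tested genes. The list median was −0.77, and −0.55 with the length trend removed. With that trend removed 8 of the 11 genes were also called, and *Gstp1*, *Gstp2* and *Scara5* were not. Without X1W replicate 3 only 4 were lower, while without X1W replicate 2 there were 15, so the count depended on which livers were used. *Mup21*, a major urinary protein (ENSMUSG00000066153, mm9 chr4:61808966-61811897), was at 5.42, 5.87 and 4.85 in X1W. It was at 7.21 to 8.89 (median 8.32) in C0, with no overlap, and differed by −2.79 ± 0.33 (limma adjusted p = 2.9e-09).

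*Hsd3b5*, a male-specific steroid dehydrogenase, was at 4.25, 5.48 and 3.07 in X1W and at 6.17 to 7.24 in C0. The groups did not overlap, and the X1W livers spread over a wider range than the 9 C0 livers. The difference was −2.55 ± 0.72 (adjusted p = 0.0044). *Serpina1e*, an alpha-1-antitrypsin copy, was at 10.72, 10.88 and 9.36 in X1W and at 11.87 to 12.74 in C0 (−2.04 ± 0.28, adjusted p = 1.1e-07).

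*Elovl3*, an elongase of very long fatty acids, was lower by 1.73 ± 0.42, and *Slco1a1*, an organic anion transporter, fell by 1.23 ± 0.34. *Mup3* fell by 1.03 and *Cyp2d9* by 0.77. The members that rose were *C4a*, a complement C4 copy (1.07), and *Scara5*, a ferritin receptor (1.54). *Mup20*, the pheromone darcin, differed by −1.09 and was not called in all 3 comparisons. The 21 major urinary protein genes held 5.95 to 12.3% of the summed RPKM in X1W and 9.11 to 15% in C0, ranges that overlap. Their share was 24.7 to 24.9% in the unoperated C4W livers and 19.8 to 21.8% in X4W, above all C0 livers. Taken from C0, the male-biased list median was 0.56 in C4W and 0.68 in X4W, so that unoperated livers also differed from each other in this list. Reads of the major urinary protein genes cannot be divided with certainty between the copies.

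Of 28 tested female-biased genes, 4 were higher and 3 lower. The counts were 2 and 0 without X1W replicate 3, 3 and 1 without X1W replicate 1, and 5 and 1 without X1W replicate 2. *Cyp2b9*, a cytochrome P450 that is low in male liver, was at 1.53, −0.54 and 0.74 in X1W and at −5.43 to −0.52 (median −2.92) in C0 (2.10 ± 0.59, adjusted p = 0.0042), so that X1W replicate 2 lay at the edge of the resting range. *Slc22a27* and *Slc22a26*, organic anion transporters, were higher by 1.65 and 1.54, and *Cyp3a44* by 1.07. *Cyp2c40* and *Cyp2c69* were both lower by 1.18, with C0 replicate 2 at the top of the resting range.

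Of 23 genes of fatty acid synthesis, 7 were higher and 1 lower, a count that depended on single livers and on the control livers used. Without X1W replicate 1, or without X1W replicate 3, 1 was higher and 1 lower, and against C0 replicates 4 to 6 only, 1 was higher and 4 lower. *Fasn*, fatty acid synthase, was at 6.66, 5.57 and 6.85 in X1W and at 4.33 to 5.40 in C0 (1.39 ± 0.36, adjusted p = 0.0016). *Acaca*, acetyl-CoA carboxylase, was at 3.96, 3.46 and 4.14 against 2.12 to 3.17 (1.10 ± 0.18). In both, every X1W liver lay above the C0 livers, with X1W replicate 2 the closest to them. *Scd2*, a desaturase, was higher by 1.60, *Srebf1*, the transcription factor of lipid synthesis, by 1.09, *Elovl6* by 1.05, *Gpam* by 0.92 and *Fads2* by 0.89, and *Elovl3* was the member that fell. *Srebf1* and *Gpam* were not called with the length trend removed.

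In fatty acid oxidation and its regulation, 1 of 34 genes was higher and 3 were lower. *Angptl4*, a secreted inhibitor of lipoprotein lipase that is induced in fasting, was at 2.54, 2.36 and 1.45 in X1W and at 3.48 to 5.58 (median 4.29) in C0. It differed by −2.32 ± 0.37 (limma adjusted p = 1.7e-06) with no overlap. *Fabp1*, the liver fatty acid-binding protein, was lower by 0.94 ± 0.21, *Acot1*, a thioesterase, fell by 1.10 ± 0.44 but was not called with the length trend removed, and *Cd36*, a fatty acid transporter, was higher by 1.64 ± 0.30. In the unoperated C4W livers, *Angptl4* stood at 3.21 and 3.35, below all 9 C0 livers.

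In cholesterol synthesis and uptake, 2 of 24 genes were higher and none was lower, and the list median was 0.23. Of these 2, 1 was also called with the length trend removed, and 1 gene was higher without any one of X1W replicates 1 and 3 and C0 replicates 1, 4, 5, 7, 8 and 9. Of 26 bile acid genes, *Ostb*, an exporter of bile acids (1.59), and *Abcb4*, the phospholipid transporter of bile (0.76), were higher, and *Slco1a1* and *Abcg8*, a sterol exporter (−0.62), were lower. Without X1W replicate 3 none of the 26 was higher and 1 was lower, and 1 was higher without any one of X1W replicates 1 and 2 and C0 replicates 5, 7 and 9. *Cyp7a1*, the rate-limiting enzyme of bile acid synthesis, was at 5.13, 3.52 and 4.51 in X1W and 2.23 to 5.42 in C0 and was not called (0.78 ± 0.56).

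No gene of glucose production and glycolysis was called in all 3 comparisons, of 24 tested, although 4 were called higher and 1 lower against all C0 livers as deposited. *Fbp1*, a gluconeogenic phosphatase, differed by 0.52. Of 36 genes of the urea cycle and amino acid breakdown, 7 were called higher against all C0 livers as deposited. *Oat*, ornithine aminotransferase, was the 1 called in all 3 comparisons. It was at 8.73, 8.32 and 8.74 in X1W against 6.79 to 8.24 in C0 (0.93 ± 0.24). That call was lost without any one of X1W replicate 3 and C0 replicates 4, 5 and 7. Outside these lists, *Csad*, an enzyme of taurine synthesis, was at 4.87, 4.48 and 3.58 in X1W and at 5.82 to 7.01 in C0 (−2.19 ± 0.33, adjusted p = 6.0e-07).

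Of 60 tested cytochrome P450 genes, 5 were higher and 9 lower, against 5.1% and 3.21% of all tested genes. The counts were 2 and 3 without X1W replicate 3, and 3 and 7 without X1W replicate 1. *Cyp3a59* was at 4.89, 5.55 and 5.49 in X1W and at 2.67 to 4.31 in C0 (1.39 ± 0.28). The lower genes were mostly of the *Cyp2c* and *Cyp2d* families, with *Cyp2c37* at −1.07, *Cyp2d12* at −0.87 and *Cyp2c67* at −0.81 beside those named above. *Cyp2e1*, the ethanol-oxidizing enzyme of the pericentral zone, fell by 0.59 ± 0.19 and its groups overlapped at 10.54 to 10.91 in X1W and 10.80 to 11.68 in C0. These families hold close copies whose separate values are uncertain. Of 46 conjugating enzymes, *Gsta1*, a glutathione transferase, was higher by 1.83, *Ugt1a9* by 1.70 and *Sult4a1*, a low transcript at −5.99 to −0.41 in X1W, by 0.98, while the close copies *Gstp1* and *Gstp2* fell by 0.78 and 0.82 and were not called with the length trend removed. Of the 46, 1 was higher and 1 lower without X1W replicate 1, 2 and 0 without X1W replicate 3, and 1 was lower without any one of C0 replicates 2 to 6.

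Pericentral and periportal marker genes, which mark hepatocytes near the central and portal veins, did not move as blocks. Of 20 pericentral genes, *Slc1a4* (1.56), *Slc13a3* (1.16), *Rnf43*, an inhibitor of Wnt signalling (0.94), *Oat* and *Slc22a3* (0.90) were higher and *Cyp2e1* was lower. There were 3 higher and 0 lower without X1W replicate 3, and 4 and 0 without X1W replicate 1. *Glul*, glutamine synthetase, the marker of the innermost pericentral cells, was not called (0.06 ± 0.18). Of 13 periportal genes, 2 were higher, among them *Aldh1b1*, a mitochondrial aldehyde dehydrogenase, at 6.22, 5.79 and 6.42 in X1W against 3.97 to 4.90 in C0 (1.62 ± 0.25, adjusted p = 1.4e-06). *Ctsc*, a protease, was the other (0.88), and 1 of the 13 was higher without X1W replicate 3.

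Of 21 hepatocyte transcription factors, 2 were higher, *Nr5a2* (0.78) and *Onecut2* (0.73), the latter not with the length trend removed. Only 1 was higher without X1W replicate 3 or C0 replicate 9, and 2 were lower without any one of C0 replicates 1 to 3. Fetal and progenitor markers were not raised as a group, with 1 of 20 called in all 3 comparisons. This was *Ly6d*, a surface protein, at 3.11, 0.86 and 3.84 in X1W and at −3.41 to −0.30 in C0 (3.26 ± 0.49, adjusted p = 4.6e-07). *Afp*, alpha-fetoprotein, was at −0.88, −1.10 and −0.78 in X1W and −2.78 to −0.53 in C0 and was not called (0.47). *Igf1* was not called (0.08 ± 0.13), and none of 20 growth hormone and IGF genes was called in all 3 comparisons.

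None of 19 clock genes was called in all 3 comparisons. *Arntl*, which encodes the clock activator BMAL1, differed by 0.42 ± 0.19 (adjusted p = 0.075). *Nr1d1*, the clock repressor REV-ERB alpha, was at 3.03, 2.61 and 2.83 in X1W and at −0.92 to 4.24 in C0, so that the X1W livers lay within the resting range. *Nfil3*, another clock-linked factor, differed by 0.12.

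**Figure D3:**
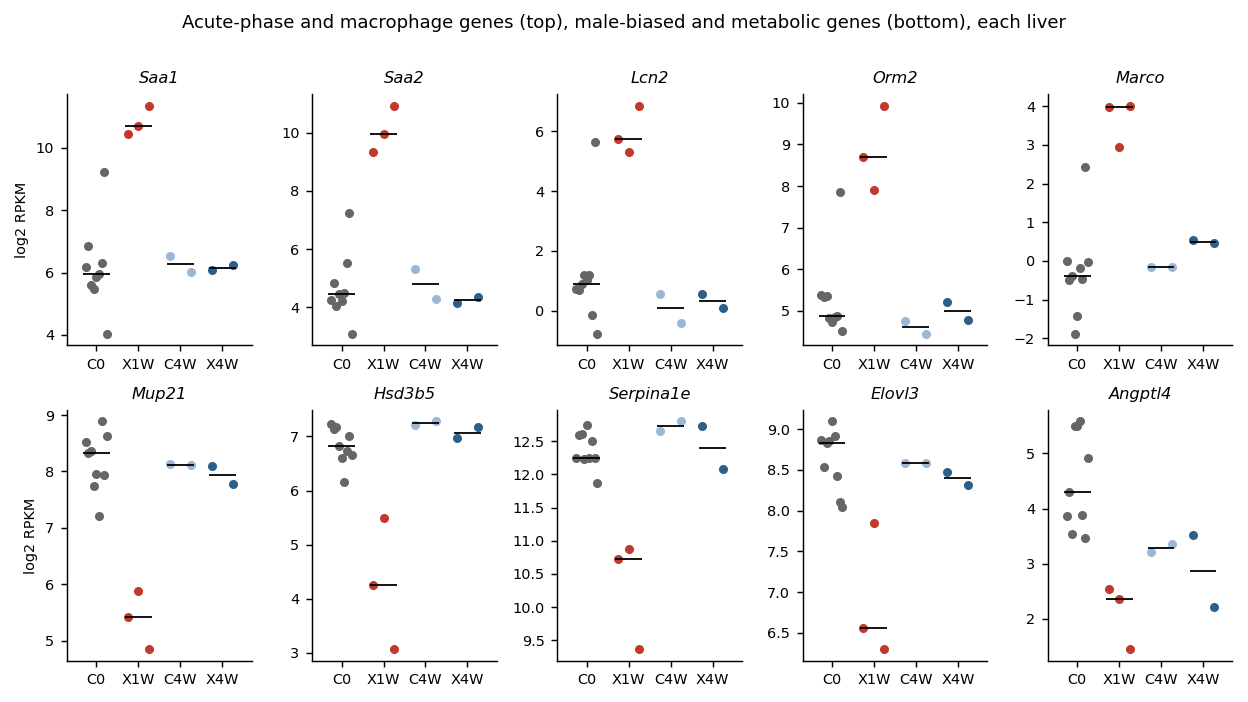
Levels of 10 genes in single livers, as log2 RPKM, in C0, X1W, C4W and X4W, with group medians as lines. In the top row the X1W livers stand high. For *Lcn2*, *Orm2* and *Marco*, 1 C0 liver (replicate 8) stands well above the other 8, at 5.64 for *Lcn2*. In the bottom row the X1W livers lie below the C0 livers, for *Mup21* at 4.85 to 5.87 against 7.21 to 8.89.

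Genes of the extracellular matrix and its crosslinking were higher in 11 of 36 cases and lower in none, against 5.1% and 3.21% of all tested genes. *Col15a1*, a basement membrane collagen, was at 1.98, 1.74 and 2.07 in X1W and at −0.92 to 0.44 in C0 (1.86 ± 0.20, limma adjusted p = 3.7e-10). *Col4a1*, another basement membrane collagen, was at 3.24, 2.69 and 3.45 against 1.41 to 2.41 (1.23 ± 0.23). *Timp1*, an inhibitor of matrix proteases, was at 0.05, −0.92 and 0.06 in X1W and at −14.29 to −2.52 in C0 (1.82 ± 0.47). In these genes the groups did not overlap, and *Col3a1*, a fibrillar collagen, was higher by 1.20 ± 0.38.

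*Sparc* and *Col4a2* were both higher by 1.13, *Loxl2*, a crosslinking enzyme, by 1.10 and *Col5a2* by 1.04. With the length trend removed 8 of the 11 were also called, and *Col3a1*, *Fn1* and *Lamc1* were not. *Col1a1*, the main fibrillar collagen, was at 1.51, 0.73 and 1.67 in X1W and −0.49 to 0.82 in C0 and was not called (1.04 ± 0.44, adjusted p = 0.058). The 11 stellate cell markers did not rise with the matrix genes. Their summed level was 79.0 to 110.7 RPKM in X1W and 94.6 to 158.7 in C0, none was higher and *Ecm1* fell by 1.19.

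The Kupffer cell markers, of which all 5 were detected, summed to 34.0 to 76.1 RPKM in X1W and 7.23 to 129.1 in C0, and 2 of the 5 were higher. *Marco*, a scavenger receptor of macrophages, was at 3.98, 2.94 and 4.01 in X1W and at −1.88 to 0.01 in 8 C0 livers, with 2.43 in C0 replicate 8. The groups did not overlap, and the difference was 3.50 ± 0.54 (limma adjusted p = 9.0e-07). *Cd5l*, secreted by liver macrophages, was higher by 1.67 ± 0.46 although C0 replicate 8, at 5.50, lay above the X1W livers. *Clec4f*, a lectin of resident Kupffer cells, was not called (0.69 ± 0.43). In a wider list of 30 Kupffer cell and monocyte genes, *Mpeg1*, a pore-forming macrophage protein, was the 1 called in all 3 comparisons (1.45 ± 0.30). These counts rested on C0 replicate 8: without it 4 of the 5 markers and 5 of the 30 genes were higher. Against C0 replicates 1 to 6 only, 9 of the 30 were higher, and against C0 replicates 7 to 9 only the median of the 30 was −0.28, where all C0 livers gave 0.30. Without X1W replicate 2, 3 of the 30 were higher, without any one of C0 replicates 1, 2 and 9, 2 were, and 1 of the 5 markers was without X1W replicate 1 or 3.

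Among genes of interferon signalling and antigen presentation, 6 of 41 were higher and none lower, against 5.1% and 3.21% of all tested genes. *Oasl1* was at 3.01, 2.90 and 3.17 in X1W and at 1.38 to 2.30 in C0 (1.07 ± 0.28), *Irgm2* was higher by 0.94, *Ifit2* by 0.86, *Irgm1* by 0.79 and *Igtp* by 0.73. With the length trend removed 4 of the 6 were also called, and *Irgm1* was not. Without X1W replicate 3, 3 of the 41 were higher. None of 31 chemokine genes was called in all 3 comparisons.

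Leukocyte markers were not higher at 1 week. Of the 9 neutrophil markers tested, none was called, and their sum was 1.39 to 3.39 RPKM in X1W and 0.361 to 53.6 in C0, where replicate 8 held *S100a8* at 4.15. The T and NK cell markers summed to 0.734 to 2.13 RPKM in X1W and 2.31 to 6.13 in C0, and *Cd4* fell by 0.93. None of 7 B or plasma cell markers was called. The hemoglobin genes were higher: *Hbb-b1* was at 4.71, 4.72 and 4.61 in X1W and at 1.26 to 5.08 in C0 (2.09 ± 0.56, adjusted p = 0.0028), and the highest liver of all was C0 replicate 2. All 4 hemoglobin genes tested were higher, and the erythroid markers summed to 121.4 to 136.2 RPKM in X1W and 38.9 to 142.9 in C0. None was called against C0 replicates 1 to 3, and without any one of the X1W livers at most 1 was called in all 3 comparisons, and without any one of C0 replicates 1, 4, 5 and 6, 2 were. Taken from C0, the median of the 6 tested erythroid markers was 1.74 in X1W and −0.11 in the unoperated C4W livers. It was 1.67 in unoperated livers labelled control 4 h (n = 3), collected at another hour of the day, and 0.79 in sham-operated livers at 48 h. Some unoperated livers thus stood near the X1W level in these markers. What part blood left in the tissue had in other results was not tested.

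Of 28 endothelial and angiogenic genes, *Wnt2*, a Wnt ligand of sinusoidal endothelium, was higher (0.77), a call that was lost without any one of X1W replicates 1 and 3 and C0 replicates 3, 4 and 5. Of the 7 tested markers of sinusoidal endothelium and the 7 of cholangiocytes, none was called. *Msln*, a mesothelial marker, was higher by 1.57, with a marker sum of 4.82 to 6.39 RPKM in X1W and 0.703 to 6.87 in C0, and it lost its call without any one of the X1W livers or of C0 replicates 4, 5 and 8. Of 13 pancreatic acinar markers, 9 were at the lowest listed value in all X1W livers and *Cela1* was the 1 gene tested (−0.94), and the skeletal muscle and adipocyte markers were near the lowest values except *Fabp4* (0.54, not called).

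The cytosolic ribosomal protein genes were lower as a block. Of 80 tested, 63 were lower and none higher, against 3.21% of all tested genes lower, and the list median was −0.69. *Rpl28*, of the large subunit, was at 6.13, 6.01 and 5.84 in X1W and at 6.62 to 7.43 in C0 (−1.06 ± 0.14, limma adjusted p = 4.5e-08). *Rps28*, of the small subunit, was at 4.46, 4.16 and 3.82 against 4.93 to 5.51 (−1.05 ± 0.17), and *Rpl36a* and *Rps27* fell by 1.0 and 0.99. The X1W and C0 livers did not overlap in 76 of the 80 genes, with X1W the lower, against 6.07% of all tested genes.

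The ribosomal protein genes held 1.08 to 1.20% of the summed RPKM in X1W and 1.44 to 1.81% in C0. The share was 1.22 to 1.25% in the unoperated C4W livers and 1.17 to 1.25% in X4W, so that the unoperated C4W livers stood between X1W and C0. Of 65 pseudogenes named for ribosomal proteins, 22 were lower and none higher, and reads cannot be told apart with certainty between these genes and their copies.

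Nuclear genes of the respiratory chain, of which 26 of 76 were lower and none higher, had a median of −0.45. The share lower among all tested genes was 3.21%. *Ndufa5*, of complex I, was at 4.61, 4.43 and 4.37 in X1W and at 5.14 to 5.84 in C0 (−0.96 ± 0.12, adjusted p = 5.4e-09). *Cox5b*, of complex IV, was lower by 0.85, *Ndufa6* fell by 0.84 and *Ndufs5* by 0.80. Without X1W replicate 3, 12 of the 76 were lower, and with all 3 comparisons repeated on libraries scaled to the same median 48 were. These genes held 1.03 to 1.17% of the summed RPKM in X1W and 1.11 to 1.46% in C0, ranges that overlap, and 1.04 to 1.07% in the unoperated C4W livers, within the X1W range. None of 37 proteasome genes was called in all 3 comparisons, with *Psmb1* at −0.36 and *Psmb7* at −0.22.

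Transcript length moved with these results. Over expressed protein-coding genes grouped into 10 bins by exon length, the median difference ran from −0.29 in the shortest bin (93 to 1315 bases) to 0.40 in the longest (7610 to 31152 bases), and 166 of the 950 genes of the shortest bin were lower (17.5%), against 0.422% in the longest. In X4W against C4W the same medians ran from −0.08 to 0.07. The median exon length was 1464 bases for the ribosomal protein list and 1328 for the respiratory chain list, against 2902.5 for all tested genes.

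Library by library, over 9733 genes, the median deviation of the longest 10% (from 7391 bases) minus that of the shortest (up to 988 bases) was 0.23 to 0.56 in X1W and −0.77 to −0.06 in C0, with no overlap. It was 0.10 to 0.11 in the unoperated C4W livers. With the trend on length taken out of each library, 1602 of all tested genes were called (10.4%), 1093 higher (7.1%) and 509 lower (3.31%). By that measure 42 of the 63 ribosomal protein genes and 7 of the 26 respiratory chain genes were also called, as were 909 of the 1279 genes (664 of 785 higher and 245 of 494 lower). What part RNA integrity or library preparation had in this trend was not tested.

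**Figure D4:**
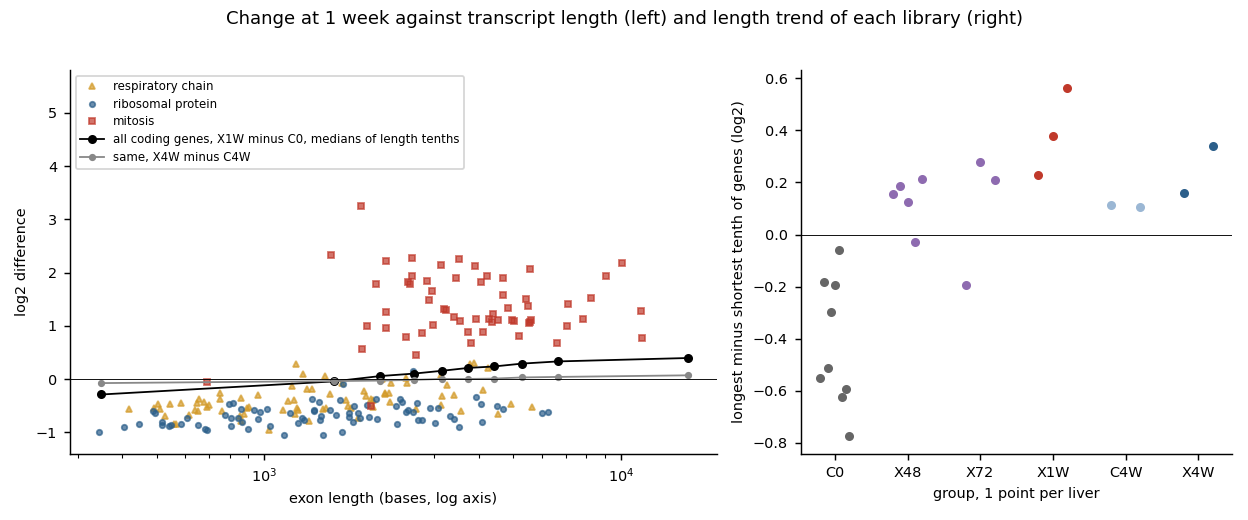
Left, log2 difference against exon length on a log axis for the mitosis, ribosomal protein and respiratory chain genes, with the median of all expressed coding genes by length bin for X1W minus C0 (black) and X4W minus C4W (grey). Right, the length trend of each library, as the median deviation of the longest minus the shortest 10% of genes. The C0 livers lie below 0 (−0.77 to −0.06) and the X1W livers above (0.23 to 0.56), and the mitosis genes are higher at nearly all lengths.

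Calls of stress genes in all 3 comparisons were mostly in the list of endoplasmic reticulum stress, where 4 of 29 were higher and 1 lower. Against all C0 livers as deposited, 9 of the 29 were called higher and 1 lower. *Hyou1*, a chaperone of the endoplasmic reticulum, was at 4.96, 6.40 and 5.35 in X1W and at 3.39 to 5.89 in C0 (1.15 ± 0.34), *Sel1l* was higher by 0.91, *Ero1lb* by 0.84 and *Edem1* by 0.76. With the length trend removed 3 of the 5 were also called, and *Hyou1* and *Edem1* were not. Among the 29, none was higher without X1W replicate 2, 1 without C0 replicate 9, 2 without any one of X1W replicate 3 and C0 replicates 4, 5, 6 and 8, 7 without X1W replicate 1 and 8 without C0 replicate 1. *Herpud1*, which works in the same disposal pathway as *Sel1l*, fell by 1.0 ± 0.36, a call that was lost without any one of X1W replicates 1 and 3 and C0 replicate 4. *Hspa4l*, of the heat shock list (1 of 18), was higher by 0.83, but was not called with the length trend removed or without X1W replicate 2. *Txnrd1*, thioredoxin reductase and an Nrf2 target (1 of 17), was higher by 0.84 ± 0.13.

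Of 32 genes of the cytoskeleton, *Tuba8* (1.86), *Stmn1*, a destabilizer of microtubules (1.46), and *Tubb6* (1.35) were higher and none was lower. *Stmn1* was at 2.74, 2.07 and 2.70 in X1W and at 0.32 to 2.13 in C0, where replicate 2 was the highest. None of 10 Yap targets was called in all 3 comparisons.

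The other genes with the largest rises outside these lists were few. *Prtn3*, proteinase 3, was at 2.64, 1.24 and 3.10 in X1W and −3.53 to 0.54 in C0 (3.44 ± 0.40), *Smpd3*, a sphingomyelinase, was at 1.30, 1.52 and 2.59 against −14.29 to −0.57 (3.03 ± 0.37), and *D17H6S56E-5* was at 3.06, 2.06 and 3.38 against −1.56 to 1.48 (2.75 ± 0.35). No liver of 1 group lay within the other group's range for these genes. *Ptgds*, a prostaglandin synthase (2.32), *Spink3*, a trypsin inhibitor (2.31), and *Mmd2* (2.30) were also higher.

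The largest falls outside the lists were those of *Scand1* (−2.25), *Gm12718* (−2.24), *Pcp4l1* (−2.09), *2210411K11Rik* (−1.93), *Gm15889* (−1.82), *Gm10681* (−1.80), *Hsd3b4* (−1.74), *Serpina12*, the adipokine vaspin (−1.73), and *Ces4a*, a carboxylesterase (−1.5). *Pcp4l1* was at −1.09, −0.64 and −1.56 in X1W and at 1.12 to 2.09 in C0, without overlap. *Hsd3b4* and *Gm10681* had nearly the same values in each liver, −2.09, −0.25 and −2.39 against −2.17, −0.28 and −2.47 in X1W, and how reads were divided between them is uncertain.

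The groups at 4 weeks gave few differences. In X4W against C4W, 10 genes were called (0.065% of 15396, with 625 at an unadjusted p below 0.05), 5 higher (0.0325%) and 5 lower (0.0325%), and none of them was among the 1279. In 8 of the 10, 1 group was listed at −14.29, and the other 2 were *Zfp655* (1.04) and *Tmem28* (−1.14), named here after their values were seen. Each of these groups held 2 livers. The difference between the change at 1 week and the change at 4 weeks was itself called for 331 genes (2.15%), positive in 253 (1.64%) and negative in 78 (0.507%). Among them were 204 of the 1279. In each of these 204 the change at 1 week was the larger, but the 1279 were chosen by their change at 1 week, which favours this outcome.

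The test of the difference called 13 of the mitosis genes, 5 acute-phase genes and 28 ribosomal protein genes. These list counts were not limited to genes called in all 3 comparisons. *Saa2* was at 4.16 and 4.37 in X4W and at 5.32 and 4.29 in C4W, and the difference of changes was 5.90 (limma adjusted p = 0.0062). *Cdc20* was at 0.39 and −0.02 in X4W and at −1.17 and −1.60 in C4W, and *Ccnb2* at −0.44 and −1.07 against −2.84 and −2.50. Their differences of changes, 2.11 and 1.27, were not called (limma adjusted p = 0.052 and 0.20). The mitosis list had a median of 0.31 in X4W against C4W, where the median of all tested genes was 0.00, and none of its 60 genes was called. In the test of the difference, 73 genes were called without X1W replicate 3, 548 without C0 replicate 2, and 8 to 27 without any one of the 4 livers of the 4-week groups.

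**Figure D5:**
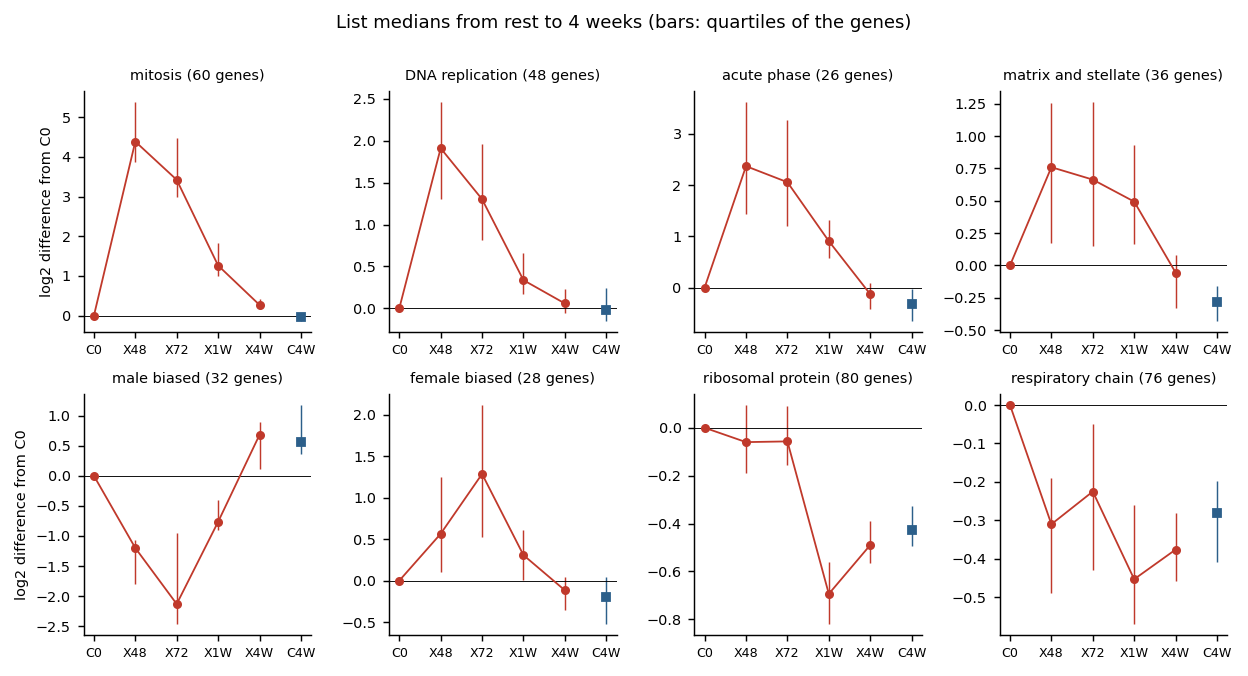
Median log2 difference from C0 over the genes of 8 lists at 48 h (X48), 72 h (X72), 1 week (X1W) and 4 weeks (X4W) after PH, and in unoperated C4W livers (squares), with quartiles of the genes as bars. Mitosis falls from 4.39 at 48 h to 1.26 at 1 week, and the ribosomal protein list is lowest at 1 week, at −0.69.

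Set beside the earlier times, the X1W median lay nearer the resting level than those of X48 and X72 in some lists but not in all. Each difference is taken from the same C0 livers and given as a description. The mitosis median was 4.39 in X48, 3.42 in X72 and 1.26 in X1W, and the DNA replication median was 1.91, 1.30 and 0.34. The acute-phase median was 2.37, 2.06 and 0.91. In sham-operated livers at 48 h the acute-phase median was 2.30, near that of X48. There the mitosis median was 0.02 and the DNA replication median −0.01. The male-biased median was −1.20, −2.13 and −0.77, and that of the matrix list was 0.76, 0.66 and 0.49.

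The ribosomal protein list followed another order, with medians of −0.06 in X48, −0.06 in X72 and −0.69 in X1W, and −0.43 in the unoperated C4W livers. The interferon list was at −0.46, −0.46 and 0.45, and the respiratory chain list at −0.31, −0.225 and −0.45. The Kupffer cell and monocyte list was at 0.20, 0.22 and 0.30, and the periportal list at −0.41, −0.20 and 0.34. For single genes, *Cdc20* had a mean log2 RPKM of 5.82 in X48 and 4.77 in X72, *Saa2* of 11.81 and 11.56, *Hsd3b5* of 1.09 and 0.62 and *Elovl3* of 3.92 and 2.67, and the X1W livers lay between these means and the C0 livers in each of the 4 genes.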

How the data were processed

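Poly(A)-selected RNA of single livers was sequenced as 100-base single reads with a strand-specific kit. Per the labels and the study's methods, the authors aligned reads to mm9 with TopHat2 2.0.13 and Bowtie2, split reads that mapped to several places, counted them with featureCounts on Ensembl 67 genes and deposited log2 RPKM values, 1 table for the whole series. Near-identical genes are therefore uncertain. In the deposited log2 values 82.1 to 85.2% of low values corresponded to whole reads within 0.05 reads, which was too few for a test on counts.

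Deposited values were turned into log2(RPKM + 0.25). Genes with log2 RPKM above −1.5 in at least 1 library were tested (15396) with limma 3.58.1 in R 4.3.3, with 1 coefficient for each of 19 groups over 80 libraries, an intensity trend and Benjamini-Hochberg adjustment. Of 84 columns, 4 matched no labelled sample and were not used, and 7 labelled samples without a column were not analysed here. Per the study, the experiments were done in separate time periods, and the X1W livers came from another period than most C0 livers. Which C0 replicates belong to which period was not given in the sources used here. The X4W and C4W livers came from another period than the X1W livers, so that the test of the difference compares livers across periods. Each library is 1 liver. The p-values rest on the spread between livers within groups, shared over all 19 groups and moderated across genes, and not on the X1W and C0 livers alone. With only the groups compared in the fit, 1968 genes were called in X1W against C0 and 997 in all 3 comparisons. Named genes were the 15 largest rises and falls, up to 4 members of each list and 24 fixed genes. The list members were ones called in all 3 comparisons, or the 2 of highest level where there was none. Further called members of a list are named as such, and a few genes are not reported here. The lists, members and tests were chosen with earlier results of these data known. The model was also run on simulated livers with independent noise for each gene. These held no period effects, outlying livers or length trend between X1W and C0, so that run does not bear on them. Exon lengths come from the reference annotation and promoters from RefSeq (GRCm38.p6), matched by symbol.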

Additional observations from a re-analysis of the deposited data

Results flagged for a closer look

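Of 151 genes examined, 25 changed differently at 1 week and at 4 weeks by the test of the difference itself (limma, Benjamini-Hochberg adjusted over all tested genes), against 2.15% of all tested genes. Apart from the fixed genes and those named for their level, the 151 were chosen by their change at 1 week, which favours such calls. The values below are the log2 change from C0 to X1W minus the log2 change from C4W to X4W, which share no liver. A large value can come from either pair. The heat shock list, which holds *Hspa4l*, had a median of 0.16 in X1W against C0 and −0.72 in X4W against C4W. The difference was positive for *Saa2* (5.90), *Saa1* (4.79), *Lcn2* (4.42), *Prtn3* (3.15), *Orm2* (3.14), *E2f2* (1.90), *Col15a1* (1.73), *Ckap2* (1.68), *Mki67* (1.67), *Rnf43* (1.55), *Hspa4l* (1.53), *Ccnb1* (1.42), *Aen* (0.98), *Hc* (0.95), *Txnrd1* (0.84) and *Zmat3* (0.83). It was negative for *Mup21* (−2.60), *Gm12718* (−2.44), *Hsd3b4* (−1.60), *Gm10681* (−1.60), *Rpl36a* (−1.0), *Ndufa5* (−0.94), *Apoa1* (−0.93), *Rps27* (−0.86) and *Ndufa6* (−0.71). The adjusted p ranged from 0.0062 for *Saa2* and *E2f2* to 0.050 for *Rps27*, and without any one of the 4 livers of the 4-week groups 8 to 27 genes of the whole table were called.

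Of the same 151 genes, 17 had 1 resting liver whose gap to the nearest other C0 liver was large for the range of the group by Dixon's criterion for 9 values (0.493), which chance meets in about 1 of 20 groups. Levels are log2 RPKM. C0 replicate 8 stood apart in *Cd5l* (5.50), *Cfd* (−14.29), *Clec4f* (5.66), *Lcn2* (5.64), *Marco* (2.43), *Mpeg1* (4.14), *Orm2* (7.86) and *Orm3* (3.52). C0 replicate 2 stood apart in *Hba-a1* (4.49), *Hba-a2* (4.60), *Hbb-b1* (5.08) and *Hbb-b2* (4.28). C0 replicate 9 stood apart in *Aen* (0.047), *Irgm1* (2.56) and *Smpd3* (−14.29), replicate 7 in *Cyp3a59* (2.67) and replicate 1 in *Sult4a1* (−14.29). The value −14.29 is the lowest listed. Genes of the same kind are not independent of each other here, since 8 of the 17 belong to 1 liver.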

How the results depend on the processing

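In X1W against C0, 2604 genes were called. With a pseudocount of 1 there were 1491, with the trend on transcript length removed 1602, and against C0 replicates 7 to 9 alone 4689. Leaving out 1 liver gave 1679 (without X1W replicate 3) to 2879 (without C0 replicate 2). Of genes called in all 3 comparisons, 1279, a pseudocount of 1 left 760, and leaving out 1 liver gave 808 (without X1W replicate 3) to 1378 (without C0 replicate 2). C0 replicates 7 to 9 alone cannot give this count, which needs C0 replicates 1 to 6. In X4W against C4W, 10 genes were called, with 4 at a pseudocount of 1, 26 with no filter on low values, 1 among genes with a mean log2 RPKM above 0, 0 when only the groups compared were fitted with limma (625 genes had an unadjusted p below 0.05 in the fit of all groups) and 5 to 11 without 1 liver.

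The test of the difference called 331 genes, 76.4% of them positive. It called 90 when only the groups compared were fitted, 183 against C0 replicates 1 to 6, 154 against C0 replicates 1 to 3, 2617 against C0 replicates 7 to 9, 502 with centred libraries (48.4% positive) and 8 (without C4W replicate 2) to 548 (without C0 replicate 2) when 1 liver was left out. With libraries scaled to the same median 480 were called (32.7% positive), and with the length trend removed 240 (50.4% positive). The cause of these moves was not tested. Replicate numbers did not pair the livers: deviations of same-numbered livers had correlations of −0.093, −0.0088 and −0.037 in X1W and C0 and −0.073 in X4W and C4W. With the replicate block 1980, 1159, 12 and 213 genes were called in the 4 counts above.

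Of the outcomes of named genes under the alternatives, 3674 kept direction and side of the threshold, 179 lost the call, 30 gained it and 3 changed sign. These were *Cdkn1a* at 1.28 against C0 replicates 1 to 3 and 1.34 against replicates 7 to 9, where all 9 gave −0.07, and *S100a9* at −1.92 against replicates 7 to 9, where all 9 gave 0.08. Removing the length trend, centring and leaving out single C0 livers were chosen after the data were seen.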
